A study of Mus musculus with 4 samples.

Results

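The 10 genes described here set or mark the balance between epithelial and mesenchymal cell states, and they were followed in sorted cells of mouse skin tumours. They were chosen by name as 10 of the 22222 gene symbols in the deposited table: the transcription factor genes Snai1, Snai2, Twist1, Twist2, Zeb1, Zeb2 and Prrx1, the intermediate filament gene Vim, and the epithelial factors Ovol2 and Grhl2. All 10 were in the table and all 10 passed the filter on low values, which left 15419 genes for testing. The tumours were keratoacanthomas, squamous skin tumours able to shrink spontaneously, raised in mice by 20 weeks of the carcinogen DMBA. The 1-week group was 2 mice (identifiers C and D) kept without DMBA for 1 week before the tumours were taken, and the on-DMBA group was 2 other mice (A and B) sampled at 0 weeks while treatment went on. In both groups the cells had been sorted by flow cytometry for Tomato and for P-cadherin and were labelled as epithelial. The labels name no strain, age or driver of the Tomato reporter. The series title names Wnt and retinoic acid signalling in spontaneous regression, and the comparison asks how these genes stood in the sorted cells 1 week after DMBA was stopped.

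In an epithelial-mesenchymal transition (EMT), epithelial cells lose junctions and apical-basal polarity and take on the shape and motility of mesenchymal cells. Factors of the SNAI, TWIST, ZEB and PRRX families drive it, in part by repressing Cdh1, the gene of E-cadherin, while OVOL and grainyhead-like factors hold cells in the epithelial state. In skin, Twist, Prrx1, Zeb genes and Vim are also part of the ordinary programme of dermal fibroblasts and other stromal cells, and Zeb2 and Vim are expressed in macrophages, so their RNA is not by itself a mark of a tumour cell in EMT.

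The 4 libraries differed in their content of epithelial and stromal transcripts, and on-DMBA replicate 1 stood apart. Levels are given as scaled CPM, the reads of a gene per 1e6 of a library size that the authors had scaled, always for replicate 1 and then replicate 2. The summed level of 18 keratinocyte markers was 5884 and 4914 at 1 week, against 73540.1 and 672 on DMBA. The sum of 13 fibroblast markers was 61000.5 and 62528 at 1 week, against 493 and 49848 on DMBA, and that of 21 leukocyte markers was 9606 and 14899 at 1 week, against 72.8 and 21733 on DMBA. For 12 endothelial markers it was 1078 and 2264 at 1 week, against 13.8 and 321 on DMBA, for 9 pericyte and smooth muscle markers 931 and 1959 at 1 week, against 337 and 414 on DMBA, and for 8 Schwann cell and melanocyte markers 53 and 47.8 at 1 week, against 6.29 and 105 on DMBA. No marker was at 0 in any library, but 7 of the 21 leukocyte and 4 of the 12 endothelial markers were at or under 3 reads in on-DMBA replicate 1. The label calls for epithelial cells, while in these sums, which are not scaled for transcript length, fibroblast markers came to more than keratinocyte markers in 3 of the 4 libraries. The libraries held between 5551937 and 9678682 recovered reads. Results are therefore given with and without the on-DMBA library they rest on. In bulk RNA, fewer cells of a type and less RNA per cell cannot be told apart.

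In limma with all 4 libraries and no replicate block none of the 10 genes passed the test across all genes. The log2 difference of Twist2 was 3.11 or more whichever on-DMBA library was left out. Twist1, Twist2, Prrx1 and Vim had higher levels in each 1-week library than in either on-DMBA library, Zeb1, Zeb2 and Snai1 had their lowest level in on-DMBA replicate 1, and Grhl2, Snai2 and Ovol2 their highest. Limma with all 4 libraries and no block, at an adjusted p under 0.05, called 0 of the 10 higher and 0 lower at 1 week. It called 0% of all genes tested in either direction. At an unadjusted p under 0.05 it counted 2 higher, Twist1 and Twist2, against 2.28% of all genes, and 0 lower, against 0.195%. On the recovered reads edgeR called 0 of the 10 and 0% of all genes, and DESeq2 called 0 of the 10, against 0.104% of all genes higher and 0.0195% lower. For 4 of the 10 genes both 1-week values exceeded both on-DMBA values, against a background of 14% of genes tested, and for 0 both were below, against 9.14%. The counts depended on which on-DMBA library was kept. Without on-DMBA replicate 1, both 1-week libraries lay above the remaining on-DMBA library for 6 of the 10 genes (background 34.6%) and below it for 1 (26.1%), and limma called Twist2 and Grhl2 higher, 2 of 10 against 2.35% of all genes, and 0 lower, against 0.999%. Without on-DMBA replicate 2 the 1-week libraries lay above for 7 (40.2%) and below for 3 (43.8%), and limma called 7 higher, against 14.3%, and 2 lower, against 10%, with Snai1 among the 7 at 2 reads in the on-DMBA library kept. A fit with a replicate block called 3 of the 10 higher, Twist2, Zeb2 and Prrx1, against 285 of all 15419 genes tested. It called 0 of the 10 lower, against 3 of all genes tested. The block was fitted although same-numbered libraries are different mice. Without on-DMBA replicate 1, Grhl2 had 8 reads in the on-DMBA library kept. In the fits without 1 on-DMBA library, the library kept was assumed to vary like the 1-week group. In those fits and in the block fit, the limma p-values used a variance shared across genes of similar level. A gene's own spread between mice did not enter them, so calls of these fits, here and below, do not measure replication. An exact two-sided permutation test of 2 against 2 cannot give a p under 0.333, so none is given per gene.

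**Figure D1:**
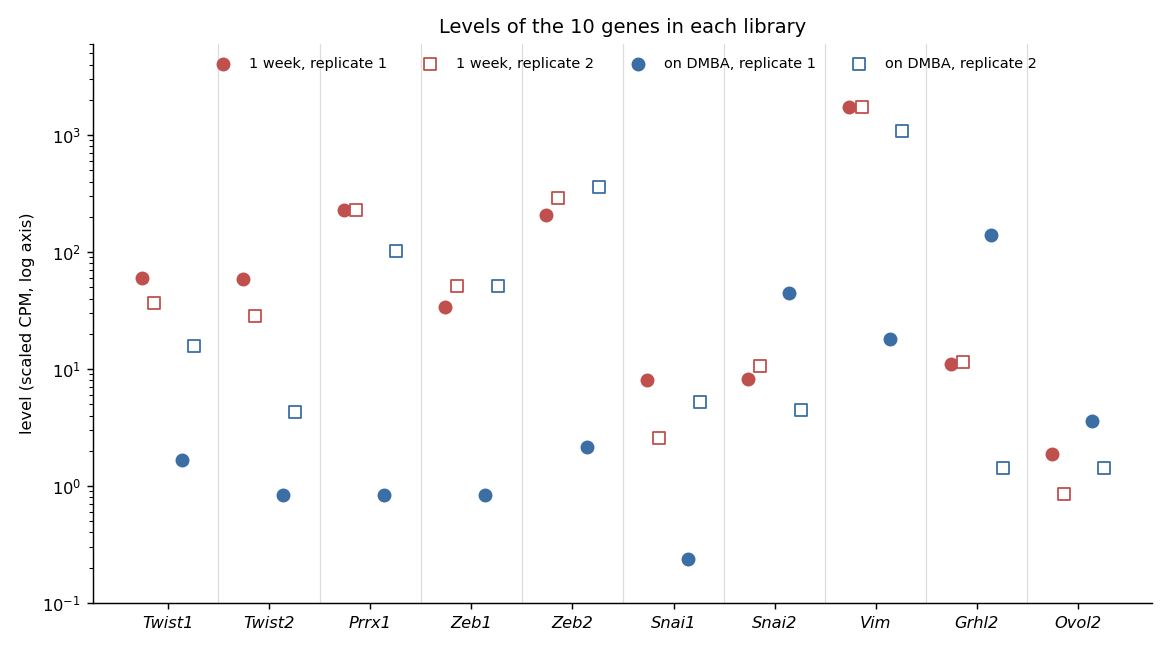
Level of each of the 10 genes in scaled CPM (log axis) in each library, with the 1-week libraries in red and the on-DMBA libraries in blue; circles are replicate 1 and squares replicate 2. On-DMBA replicate 1 is the lowest point for Twist1, Twist2, Prrx1, Zeb1, Zeb2, Snai1 and Vim and the highest for Snai2, Grhl2 and Ovol2.

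Twist1 and Twist2 encode basic helix-loop-helix factors of the mesoderm, and Twist2, also known as Dermo1, is a factor of developing dermis. Twist2 was at 58.9 and 28.5 scaled CPM at 1 week (377 and 200 reads), against 0.83 and 4.31 on DMBA (7 and 24 reads). The groups lay far apart, with the lower 1-week library above the higher on-DMBA library. The means were 43.7 ± 21.5 at 1 week and 2.57 ± 2.46 on DMBA (SD, n = 2 each), and the log2 difference of 4.04 (SE 0.89) had an unadjusted p of 0.00552 and an adjusted p of 0.9997 in limma. On recovered reads it was 4.15 in edgeR and 4.11 in DESeq2, the second with an adjusted p of 0.0746. Leaving out on-DMBA replicate 1 gave 3.11 and leaving out on-DMBA replicate 2 gave 4.96, so Twist2 was higher at 1 week against either on-DMBA library taken alone. The mean 1-week level was 10.2 times that of on-DMBA replicate 2.

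Twist1 was at 60.5 and 36.5 scaled CPM at 1 week, against 1.66 and 15.6 on DMBA. Again both 1-week libraries were above both on-DMBA libraries. The log2 difference was 3.01 (SE 1.07) with an unadjusted p of 0.036 and no call in limma. Leaving out on-DMBA replicate 1 gave 1.56, and leaving out on-DMBA replicate 2 gave 4.46. Per kilobase of transcript, Twist1 exceeded Twist2 in every library, by 1.59 and 1.99 times at 1 week and by 3.10 and 5.62 times on DMBA. The ratio of the pair was thus lower in each 1-week library than in either on-DMBA library. In on-DMBA replicate 1 it rests on 14 Twist1 and 7 Twist2 reads, and in on-DMBA replicate 2 on 87 and 24. Counting error at so few reads is large, and the difference in ratio was not tested.

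Prrx1 encodes a paired-related homeobox factor of limb, craniofacial and dermal mesenchyme. It was at 229 and 227 scaled CPM at 1 week, against 0.83 and 103 on DMBA. The 1-week libraries were nearly equal, and on-DMBA replicate 2 had less than either. The log2 difference was 4.28 (SE 1.99) without a call in limma, and replicate 1 minus replicate 2 was 0.01 within the 1-week pair and -6.28 within the on-DMBA pair on the log2 scale. The difference was smaller on recovered reads, at 2.14 in edgeR and 2.09 in DESeq2. Leaving out on-DMBA replicate 1 gave a difference of 1.15, and leaving out on-DMBA replicate 2 gave 7.42.

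The sequences before the start sites of these genes and of Vim and Snai1 are shown because these are the genes whose groups did not overlap, with Snai1 as the gene whose window held an E-box. E-boxes, written CANNTG, are the motif class that TWIST, SNAI and ZEB proteins bind, and CAGGTG is the form recognised by SNAI and ZEB. The windows are the 250 bases before the RefSeq start on GRCm38.p6, a later build than the mm9 named in the submitters' processing notes, and were used for 7 of the 10 genes (Snai1, Twist1, Twist2, Zeb2, Prrx1, Vim and Ovol2). Capitals mark matches on either strand to the E-box CANNTG, to the TATA box TATAAA or to the GC box core GGGCGG. Twist2 lies at chr1:91801211-91801460 on the plus strand, Twist1 at chr12:33957421-33957670 on the plus strand, Prrx1 at chr1:163313651-163313900 on the minus strand, Vim at chr2:13574061-13574310 on the plus strand and Snai1 at chr2:167537945-167538194 on the plus strand.
Twist2: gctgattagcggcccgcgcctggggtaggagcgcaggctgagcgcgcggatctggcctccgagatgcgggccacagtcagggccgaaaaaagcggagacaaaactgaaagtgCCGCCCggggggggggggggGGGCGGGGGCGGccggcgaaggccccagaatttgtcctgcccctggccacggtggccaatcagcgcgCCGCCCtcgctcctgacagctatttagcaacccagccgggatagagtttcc
Twist1: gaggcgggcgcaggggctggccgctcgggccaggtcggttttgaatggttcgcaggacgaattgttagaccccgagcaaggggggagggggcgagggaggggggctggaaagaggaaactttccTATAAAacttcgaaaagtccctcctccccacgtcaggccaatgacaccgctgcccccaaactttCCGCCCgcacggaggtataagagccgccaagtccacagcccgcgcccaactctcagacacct
Prrx1: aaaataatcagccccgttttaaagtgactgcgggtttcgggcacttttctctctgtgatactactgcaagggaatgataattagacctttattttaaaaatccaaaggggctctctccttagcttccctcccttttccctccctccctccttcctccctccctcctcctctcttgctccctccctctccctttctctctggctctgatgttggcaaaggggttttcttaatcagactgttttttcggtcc
Vim: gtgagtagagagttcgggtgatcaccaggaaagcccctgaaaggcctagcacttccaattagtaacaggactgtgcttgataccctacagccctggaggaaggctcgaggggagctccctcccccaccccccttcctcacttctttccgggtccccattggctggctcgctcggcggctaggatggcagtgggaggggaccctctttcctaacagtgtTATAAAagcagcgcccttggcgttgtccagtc
Snai1: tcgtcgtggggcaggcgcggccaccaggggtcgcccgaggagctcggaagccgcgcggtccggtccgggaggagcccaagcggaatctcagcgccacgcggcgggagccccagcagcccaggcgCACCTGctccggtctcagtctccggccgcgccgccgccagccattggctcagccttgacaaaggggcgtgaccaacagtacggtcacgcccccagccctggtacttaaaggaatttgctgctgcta

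Of the 7 genes, 1 had a CANNTG in its windows, Snai1, whose single match read CACCTG, the reverse complement of CAGGTG, and began 126 bases before the start. Over all 32851 windows of the same length, 66.2% held CANNTG and 17.2% held CAGGTG, which CANNTG includes. The Vim window held TATAAA 32 bases before the start and the Twist1 window 126 bases before it, a motif found in 12.4% of windows. The GC box core occurred 4 times in the Twist2 window and 1 time in the Twist1 window, and it was in 3 of the 4 Zeb2 windows, which makes 3 of the 7 genes in all, against 32.7% of windows. CATATG (also a CANNTG), AACNGGTT and CCGTTA were in none of the 7 genes, and in 3.46%, 1.79% and 2.18% of all windows. A match, or its lack, describes these letters and says nothing of binding.

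Zeb1 and Zeb2 encode zinc finger homeodomain repressors that bind paired E-boxes. Zeb2 was at 207 and 287 scaled CPM at 1 week, against 2.14 and 357 on DMBA. On-DMBA replicate 2 had the highest level of all and on-DMBA replicate 1 the lowest, so the groups overlapped. Zeb1 was at 33.6 and 51.5 scaled CPM at 1 week, against 0.83 and 51 on DMBA, with 1-week replicate 2 and on-DMBA replicate 2 almost equal. The log2 difference was 2.99 (SE 2.24) for Zeb2 and 2.35 (SE 1.73) for Zeb1, neither called in limma. On recovered reads both were much nearer 0, at 0.45 in edgeR and 0.40 in DESeq2 for Zeb2 and at 0.71 and 0.66 for Zeb1. With on-DMBA replicate 1 left out the sign of both turned, to -0.55 for Zeb2 and -0.29 for Zeb1. Without on-DMBA replicate 2 the differences were 6.53 and 4.98. Per kilobase of transcript Zeb2 exceeded Zeb1 in every library, by 3.92 and 3.54 times at 1 week and by 1.63 and 4.45 times on DMBA. In on-DMBA replicate 1 this ratio rests on 18 Zeb2 and 7 Zeb1 reads. For neither Zeb gene did both 1-week libraries exceed on-DMBA replicate 2, as they did for Twist2, and the difference between the genes was itself not tested.

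Snai1 and Snai2 encode zinc finger repressors of Cdh1, and Snai2 is also expressed in basal keratinocytes of mouse epidermis. Snai1 was at 7.97 and 2.57 scaled CPM at 1 week (51 and 18 reads), against 0.24 and 5.20 on DMBA (2 and 29 reads). It was low throughout, and its 2 reads in on-DMBA replicate 1 were under the floor of 3 reads, so its fitted difference against that library depends on the pseudocount and is no bound on a fold. Snai2 was at 8.28 and 10.6 scaled CPM at 1 week, against 44.3 and 4.49 on DMBA. On-DMBA replicate 1 was the highest for Snai2, the reverse of its rank for Snai1, and the groups overlapped for both. The log2 difference was 1.31 (SE 1.22) for Snai1 and -0.60 (SE 1.14) for Snai2, neither called in limma, and for Snai2 it was -1.29 in edgeR and -1.33 in DESeq2. Without on-DMBA replicate 1 the differences were -0.16 and 0.98, with no call, and without on-DMBA replicate 2 they were 2.79, called higher, and -2.18, called lower.

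Vim encodes vimentin, the intermediate filament protein of fibroblasts, endothelial cells and leukocytes. It was at 1750.4 and 1735 scaled CPM at 1 week, against 18.2 and 1083 on DMBA. Both 1-week libraries lay above both on-DMBA libraries, but on-DMBA replicate 2 was much closer to them than to its own group. The log2 difference was 3.62 (SE 1.91) without a call in limma, and 1.66 in edgeR and 1.62 in DESeq2. Leaving out on-DMBA replicate 1 gave 0.69 and no call, and leaving out on-DMBA replicate 2 gave 6.54 and a call. Vim was the gene with the highest level per kilobase of transcript in 3 of the 4 libraries, at 798 and 791 scaled CPM per kilobase at 1 week, against 8.28 and 494 on DMBA. In on-DMBA replicate 1 Grhl2 (28.1) and Snai2 (21.9) exceeded it per kilobase.

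Grhl2 encodes a grainyhead-like activator of epithelial junction genes and Ovol2 a zinc finger repressor of Zeb1, both restraints on EMT in mouse epithelia. Grhl2 was at 10.9 and 11.6 scaled CPM at 1 week, against 139 and 1.44 on DMBA. The 1-week libraries lay between the on-DMBA libraries, which differed by 6.17 on the log2 scale. The log2 difference was -0.49 (SE 1.99) with no call in limma, and was -2.54 in edgeR and -2.59 in DESeq2, also without a call. In limma it turned to 2.60 when on-DMBA replicate 1 was left out and was -3.57 when on-DMBA replicate 2 was, so its sign depended on the on-DMBA library kept. The 2.60 rests on 8 Grhl2 reads in on-DMBA replicate 2. Ovol2 was at 1.88 and 0.86 scaled CPM at 1 week (12 and 6 reads), against 3.56 and 1.44 on DMBA (30 and 8 reads). It was the lowest of the 10 genes per kilobase in both 1-week libraries, its groups overlapped, and its log2 difference of -0.64 (SE 0.81) was called in none of the fits.

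**Figure D2:**
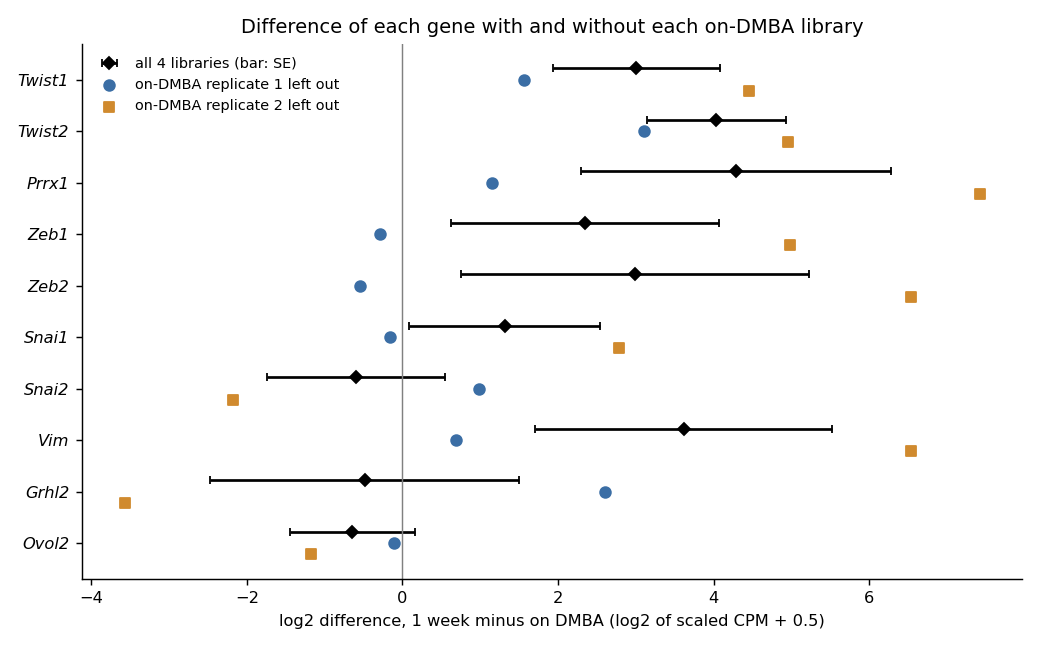
Log2 difference of each gene, 1 week minus on DMBA, from the fit of all 4 libraries (black, bar 1 SE) and with on-DMBA replicate 1 (blue) or replicate 2 (orange) left out. Twist2 runs from 3.11 to 4.96 across the fits, while Zeb1, Zeb2, Snai1, Snai2 and Grhl2 fall on both sides of 0.

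The genes were next set beside the markers of the cells that normally express them, by subtracting the mean log2 level of a marker list in the same library. Vim kept a nearly constant distance from the fibroblast list, at 0.38 and 0.33 at 1 week, against 0.53 and 0.23 on DMBA on the log2 scale. Relative to the leukocyte list it was at 4.34 and 3.93 at 1 week, against 3.42 and 3.05 on DMBA, higher without overlap. Relative to the endothelial list it was at 4.52 and 3.46 at 1 week, against 3.81 and 5.50 on DMBA, with overlap. Prrx1 relative to the fibroblast list was at -2.56 and -2.60 at 1 week, against -3.28 and -3.17 on DMBA. It was thus higher relative to that list in both 1-week libraries, by a mean of 0.65. Zeb1 went the other way, at -5.31 and -4.73 at 1 week, against -3.28 and -4.17 on DMBA, lower without overlap by a mean of -1.29. Twist1 was at -4.47 and -5.22 at 1 week, against -2.58 and -5.85 on DMBA, and these overlapped. Zeb2 was at 1.26 and 1.33 relative to the leukocyte list at 1 week, against 0.59 and 1.45 on DMBA, and these overlapped. Twist2 was at -4.51 and -5.57 relative to the fibroblast list at 1 week, against -3.28 and -7.59 on DMBA. For Twist2 the 1-week libraries were therefore above on-DMBA replicate 2 but below on-DMBA replicate 1 once set against fibroblast markers. In on-DMBA replicate 1 the values of Twist2, Prrx1 and Zeb1 each rest on 7 reads and depend on the pseudocount. The leukocyte and endothelial list means in that library depend on it too, with 7 of 21 and 4 of 12 markers at or under 3 reads. Grhl2 kept close to the keratinocyte list, at -3.31 and -3.15 at 1 week, against -3.57 and -2.97 on DMBA, the last from 8 reads. Snai2 moved more against that list, at -3.69 and -3.28 at 1 week, against -5.21 and -1.61 on DMBA. These are descriptions of each library without a test, and the part of cell content in the differences above was not tested.

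**Figure D3:**
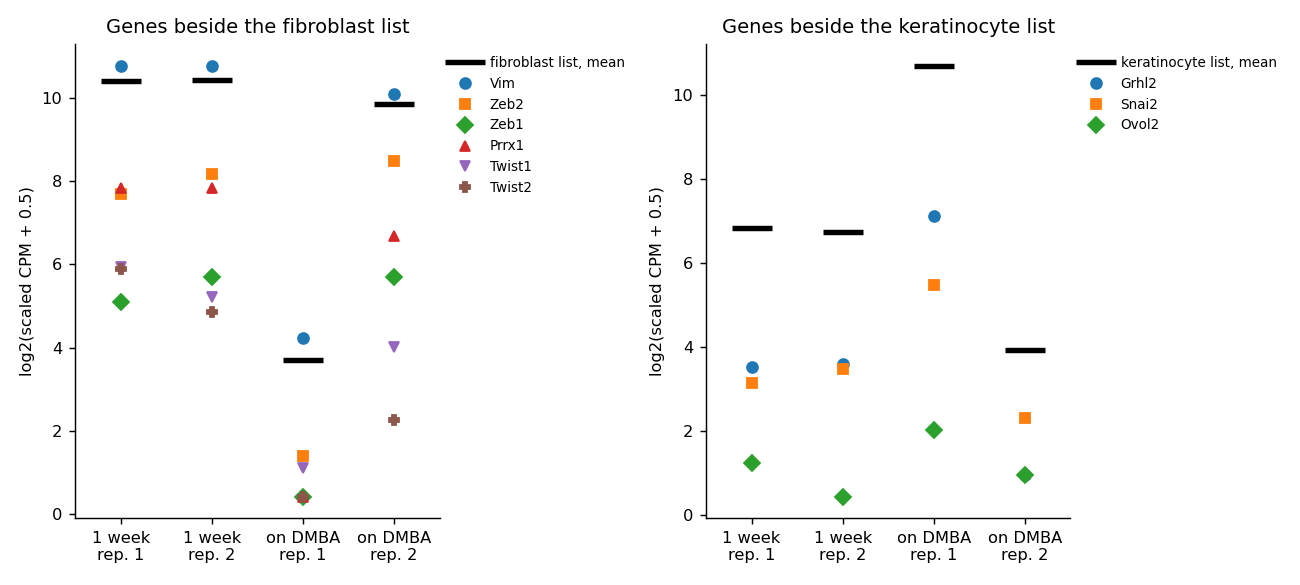
Log2(scaled CPM + 0.5) of the stromal genes beside the mean of the fibroblast list (left) and of Grhl2, Snai2 and Ovol2 beside the mean of the keratinocyte list (right), black dashes, in each library. Vim lies 0.23 to 0.53 above the fibroblast dash in every library, and Grhl2 lies 2.97 to 3.57 below the keratinocyte dash.

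The genes most like 4 of the members across the 4 libraries were found by the root mean square distance of log2 levels after centring each gene, among 11778 other genes that averaged 5 scaled CPM or more. Closest to Vim were Gpr124, an adhesion receptor gene (distance 0.053), Cd40, a receptor gene of antigen-presenting cells (0.097), and Myo1g, a myosin gene of blood cells (0.098). Closest to Zeb2 were the proteoglycan gene Dcn (0.045), Arhgap30 (0.069) and the chemokine receptor-like gene Ccrl2 (0.077). Closest to Prrx1 were the fibroblast receptor gene Pdgfra (0.105), the chemokine receptor gene Cxcr4 (0.141) and the procollagen protease gene Adamts2 (0.165). Closest to Grhl2 were the keratinocyte lectin gene Lgals7 (0.078), the epidermal kinase gene Ripk4 (0.112) and the cornified envelope gene Ppl (0.127). Lgals7, for example, was at 44.2 and 50.1 scaled CPM at 1 week, against 635 and 7.54 on DMBA, and Dcn at 559 and 743 at 1 week, against 6.06 and 898 on DMBA. In on-DMBA replicate 1 Cd40 had 0 reads, Myo1g 1, Ccrl2 3 and Cxcr4 6, so their distances depend on the pseudocount. With 4 libraries many genes share such a pattern, so likeness says only that the levels ran in parallel here.

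Genes that mesenchymal cells make during EMT had the highest median difference of the 6 pathway lists, though none of them passed in limma. Of the 21 tested mesenchymal genes induced in EMT, 0 passed in limma in either direction, 14 were higher without overlap of the groups (66.7%, against 14% of all genes) and 0 lower (background 9.14%), and their median log2 difference was 2.51, against -0.02 over all genes tested. At an unadjusted p under 0.05 limma counted 4 higher, against 2.28% of all genes, and 0 lower, against 0.195%. In edgeR 0 were called, against 0% of all genes, and DESeq2 called 2 higher, Mmp9 and Acta2, against 0.104%. Higher without overlap, against 14% of all genes, were 9 of 13 fibroblast markers, 12 of 12 endothelial markers and 8 of 9 pericyte and smooth muscle markers. The last list also includes Acta2. The counts were 2 of 19 for leukocyte markers, 3 of 6 for Schwann cell and melanocyte markers and 0 of 18 for keratinocyte markers. The part of these cell types in the differences was not tested. The median of the mesenchymal genes was 0.65 without on-DMBA replicate 1, with 2 genes called higher against 2.35% of all genes, and 4.34 without on-DMBA replicate 2, with 20 against 14.3%. On recovered reads it was 1.43 in edgeR and 1.39 in DESeq2. The members with the smallest p did not pass in limma: the gelatinase gene Mmp9 had a log2 difference of 5.17 (SE 0.60), the smooth muscle actin gene Acta2 2.84 (SE 0.49), and the actin-binding gene Tagln 3.76 (SE 1.29) with 181 and 258 scaled CPM at 1 week, against 3.68 and 60.5 on DMBA. Cdh2, the gene of N-cadherin, which replaces E-cadherin in EMT, was at 7.66 and 6.99 at 1 week, against 0.83 and 14.2 on DMBA. Fn1, the fibronectin gene, was at 1431 and 1485 at 1 week, against 9.14 and 1766 on DMBA. Cdh2 and Fn1 thus overlapped between groups and were highest in on-DMBA replicate 2.

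Epithelial genes that EMT factors repress took opposite directions against the 2 on-DMBA libraries. Of 23 tested, 0 passed in limma, edgeR or DESeq2. Before adjustment, 1 higher and 1 lower gene reached a p under 0.05 in limma, against 2.28% and 0.195% of all genes. Without overlap 2 were higher and 2 lower, 8.7% each, against 14% and 9.14% of all genes. The median was -0.43, and it was 1.96 without on-DMBA replicate 1, with 11 called higher and 1 lower (2.35% and 0.999% of all genes), and -1.73 without on-DMBA replicate 2, with 1 called higher and 11 lower (14.3% and 10% of all genes). With all libraries it was -1.30 in edgeR and -1.36 in DESeq2. Cdh1 was at 30.9 and 44.2 scaled CPM at 1 week, against 459 and 5.74 on DMBA, and its highest and lowest libraries were those of Grhl2. The member with the smallest p, the tight junction gene Cldn1, had a log2 difference of -3.28 (SE 0.78) without passing, and it was higher in on-DMBA replicate 2 than in replicate 1. The protease inhibitor gene Spint1 was at 106 and 258 at 1 week, against 61.5 and 12.6 on DMBA, and the simple epithelial keratin gene Krt8 at 7.81 and 62.2 at 1 week, against 7.48 and 2.33 on DMBA.

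Other factors that hold cells in the epithelial state also took opposite directions against the 2 on-DMBA libraries. Of 14 tested epithelial gatekeeper genes, 0 passed in limma (0 also at an unadjusted p under 0.05), edgeR or DESeq2, and 0 were without overlap in either direction, against 14% of all genes higher and 9.14% lower, with a median of -0.94 that turned to 1.07 without on-DMBA replicate 1 (3 called higher against 2.35% of all genes, 0 lower against 0.999%) and was -3.53 without on-DMBA replicate 2 (0 higher against 14.3%, 13 lower against 10%). Recovered reads of all libraries gave -2.40 by edgeR and -2.44 by DESeq2. The splicing regulator gene Esrp1 was at 14.5 and 12.3 scaled CPM at 1 week, against 235 and 1.97 on DMBA. The family members Grhl1 and Grhl3 were at 8.91 and 3 at 1 week, against 128 and 2.15 on DMBA, and at 6.41 and 2.28 at 1 week, against 56.9 and 0.36 on DMBA. Ovol1 was at 7.81 and 2.85 at 1 week, against 62 and 2.69 on DMBA. On-DMBA replicate 1 held the highest level of each of these 4 genes. The members with the smallest p, the Krüppel-like factor genes Klf5 and Klf4 and the GATA factor gene Gata3, had log2 differences of -1.94 (SE 1.43), -1.03 (SE 0.97) and -1.05 (SE 1.06) and did not pass.

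Among 15 other transcription factors linked to EMT, 0 passed in limma, edgeR or DESeq2. At an unadjusted p under 0.05 limma counted 1 higher and 0 lower, against 2.28% and 0.195% of all genes. Without overlap 3 were higher and 1 lower (20% and 6.67%, against 14% and 9.14% of all genes), and the median was 0.28. The T-box gene Tbx3 was at 50 and 17.3 scaled CPM at 1 week, against 2.37 and 8.61 on DMBA, and Prrx2, the paralogue of Prrx1, at 7.03 and 5.99 at 1 week, against 0.24 and 4.31 on DMBA. Sox9, a factor of hair follicle and mesenchymal progenitors, was at 9.85 and 8.70 at 1 week, against 65.2 and 12.4 on DMBA. Snai3, the third SNAI gene, was at 2.97 and 0.71 at 1 week, against 6.53 and 0 on DMBA. The median was 0.34 with on-DMBA replicate 1 left out and turned to -0.61 with on-DMBA replicate 2 left out. With all 4 libraries it was 0.0017 in edgeR, -0.039 in DESeq2, -0.099 after quantile normalization and 0.073 with a filter of 5 scaled CPM. The medians over all genes in these settings were -0.054, -0.101, -0.148 and -0.119, so the list stayed slightly above them. Without on-DMBA replicate 2 it fell below the median over all genes (-0.059), so the list had no settled direction across libraries.

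The ligands, receptors and Smad proteins that induce EMT, 21 genes tested, had 0 passing in limma, edgeR or DESeq2. At an unadjusted p under 0.05 limma counted 1 higher and 0 lower, against 2.28% and 0.195% of all genes. Without overlap 7 were higher and 3 lower (33.3% and 14.3%, against 14% and 9.14% of all genes), and the list median was 0.41. The ligand gene Pdgfb was at 86.4 and 89.7 scaled CPM at 1 week, against 21.8 and 41.3 on DMBA, a log2 difference of 1.54 (SE 0.55), and the receptor gene Fgfr1 was at 216 and 140.2 at 1 week, against 38.6 and 92.8 on DMBA. Pdgfrb, the PDGF-B receptor gene of pericytes and fibroblasts, was at 537 and 449 at 1 week, against 1.19 and 272 on DMBA. On recovered reads edgeR gave this list a median of 0.033, against -0.054 over all genes, and DESeq2 one of -0.020, against -0.101. The sign of the list median thus differed between the tools, but it lay above the median over all genes in both. Of 25 tested cofactors and stability regulators of the SNAI, ZEB and TWIST proteins, 0 passed in limma (0 also at an unadjusted p under 0.05), edgeR or DESeq2, 2 were higher and 4 lower without overlap (8% and 16%, against 14% and 9.14% of all genes), and the median was -0.34, or -0.51 in edgeR and -0.55 in DESeq2. The ubiquitin ligase genes Fbxw7 and Fbxo11, whose products mark SNAI proteins for breakdown, had log2 differences of -1.18 (SE 0.65) and -0.96 (SE 0.62), and the Polycomb methyltransferase gene Ezh2 -1.27 (SE 0.83), and none passed. The median of the cofactor list was -0.00106 when on-DMBA replicate 1 was left out and -0.94 when on-DMBA replicate 2 was.

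**Figure D4:**
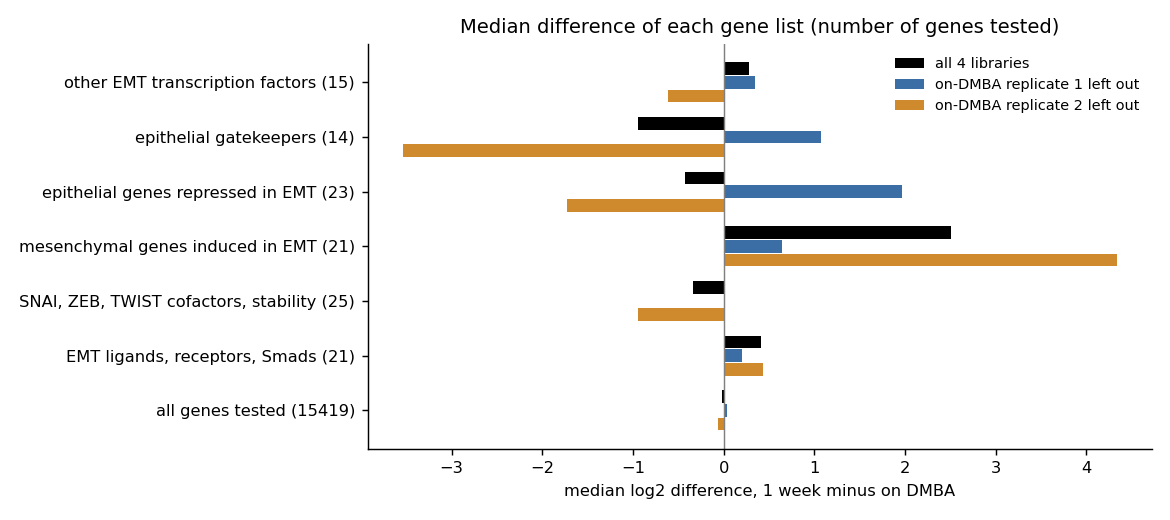
Median log2 difference, 1 week minus on DMBA, of each gene list with all 4 libraries (black) and with on-DMBA replicate 1 (blue) or replicate 2 (orange) left out; the number of genes tested is in brackets. Mesenchymal genes stay above 0 (2.51, 0.65 and 4.34), while the epithelial lists change sign with the library left out.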

How the data were processed

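Per the labels' protocols, RNA-seq libraries of 4 mice were made by ribosomal RNA depletion and dUTP strand marking. Per the submitters' processing notes the mm9 build was used with edgeR 3.2.3, HTSeq, TopHat2 2.1 and CASAVA 1.8.2, whose roles are not stated there. How strand, annotation and reads shared by paralogues were handled is not given in the sources used here. A normalised signal per gene symbol was deposited by the authors under the name CPM; its columns sum to 867697 and 1092838 at 1 week and to 1149287 and 1011509 on DMBA, and it is called scaled CPM here. All values (100%, tolerance 0.01 reads) were whole multiples of 1 step per library, so whole reads were recovered: 5551937 and 7662159 at 1 week, and 9678682 and 5635945 on DMBA. A floor of 3 reads is 0.469 and 0.428 scaled CPM at 1 week, and 0.356 and 0.538 on DMBA, and covers counting error only.

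Genes reaching 1 scaled CPM in 2 or more libraries were tested in R 4.3.3 with limma 3.58.1 (trend) on log2(scaled CPM + 0.5), two-sided, Benjamini-Hochberg adjusted over all 15419 genes with calls under 0.05. Log2 differences are on this scale and understate changes of low genes. The design had planned for CPM; the log-scale test was kept. Alternatives were other pseudocounts, filters and scalings, eBayes without trend, a replicate block, leaving out each library, and edgeR 4.0.16 and DESeq2 1.42.0 on recovered reads. The tests were checked on simulated data that had the same spread in every library. The check does not cover a library that stands apart, as on-DMBA replicate 1 did. Levels per kilobase use the longest principal GENCODE M21 transcript. Named were the 10 genes, 8 fixed genes, the 3 members of each list with the smallest p (or those passing) and the 3 nearest genes; the most abundant gene of each marker list is in the closing part, except 1 that is not reported here. The members and lists were chosen with earlier results of these data known. Mice are separate animals by their identifiers. In the limma fits of all 4 libraries without a block, the p-values rest on the spread between mice, partly shared across genes. In the fits without 1 on-DMBA library or with a block, they rest on a variance shared across genes and not on each gene's own spread.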

Additional observations from a re-analysis of the deposited data

How the results depend on the processing

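Across the 10 settings that kept all 4 libraries, all 99 differences of the 10 genes that could be computed kept their sign, and 96 their side of the threshold, but sizes moved: on recovered reads in DESeq2 Zeb2 was 0.40, against 2.99 in limma, Zeb1 0.66 against 2.35, Prrx1 2.09 against 4.28, Vim 1.62 against 3.62, Snai2 -1.33 against -0.60 and Grhl2 -2.59 against -0.49, and edgeR gave values close to these; Ovol2 had no value under the filter of 5 scaled CPM. Quantile normalization put the median over all genes at -0.15, against -0.02, and none of the 10 genes changed sign relative to it. Replicate numbers mark different mice, and same-numbered libraries did not deviate together (correlation 0.0151 across genes). A replicate block gave 285 genes called higher and 3 lower, against 0 and 0, and called 3 of the 10 genes higher (Twist2 adjusted p = 0.0101, Zeb2 0.0453, Prrx1 0.000503). DESeq2 called 16 genes higher and 3 lower, none of the 10. For the list of EMT ligands, receptors and Smads the median was 0.49 with a pseudocount of 0.1, 0.21 with a pseudocount of 1, 0.49 with the filter of 5, 0.033 in edgeR and -0.020 in DESeq2. Leaving out each library gave 0 to 2212 genes called higher and 0 to 1549 lower, 0 to 7 of the 10 genes called higher and 0 to 2 lower, and 5 to 7 higher and 0 to 3 lower without overlap (counts by overlap were chosen after seeing the data). The differences then ran from -0.16 to 2.79 for Snai1, -2.18 to 0.98 for Snai2, -0.29 to 4.98 for Zeb1, -0.55 to 6.53 for Zeb2 and -3.57 to 2.60 for Grhl2, and list medians from -3.53 to 1.07 for gatekeepers, -1.73 to 1.96 for repressed epithelial genes, 0.65 to 4.34 for mesenchymal genes, -0.94 to -0.00106 for cofactors and 0.11 to 0.43 for ligands and receptors. The cause of these shifts was not tested. Snai1 and Ovol2 are limited by depth, with as few as 2 and 6 reads.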

Other observations

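Per kilobase of transcript, the balance within related pairs differed between libraries. Snai2 was 0.83 and 3.30 times Snai1 at 1 week, against 0.69 times in on-DMBA replicate 2; in on-DMBA replicate 1 Snai1 was under the floor of 3 reads. Grhl2 was 1.81 and 4.20 times Ovol2 at 1 week, against 12.2 and 0.31 times on DMBA. Prrx1 was 1.98 and 4.06 times Twist2 at 1 week, against 0.51 and 12.2 times on DMBA, so the 1-week libraries lay between the on-DMBA libraries for both of these pairs. The 0.31 rests on 8 reads of each gene in on-DMBA replicate 2. The 0.51 rests on 7 reads of each gene in on-DMBA replicate 1, so both ratios carry a large counting error.

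The most abundant genes of 5 marker lists show what else the sorted cells carried. The keratin gene Krt14 was at 2644 and 1944 scaled CPM at 1 week, against 26654 and 202 on DMBA, and the fibroblast collagen gene Col3a1 at 20761 and 27662 at 1 week, against 68.5 and 20658 on DMBA. The lysozyme gene Lyz2 of myeloid cells was at 3112 and 6663 at 1 week, against 1.19 and 8839 on DMBA. The endothelial gene Vwf was at 161 and 477 at 1 week, against 0.47 and 24.9 on DMBA, and the pericyte gene Mcam at 183 and 463 at 1 week, against 40.4 and 168 on DMBA.

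Antisense genes overlap exons of Twist2, Zeb1, Zeb2, Ovol2 and Grhl2 in GENCODE M21, and without the strand setting of the counting their reads cannot be told apart. Of these partners Gm10125, opposite Zeb1, had its own row in the table, at 1.09 and 1.14 scaled CPM at 1 week, against 0.12 and 1.44 on DMBA.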
